A study of Homo sapiens with 647 samples.

Results

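Palbociclib, an inhibitor of the cell cycle kinases CDK4 and CDK6, was added to fulvestrant and FGF2 in T47D cells that carried an FGFR1 construct. The 11 libraries described here are all those titled with that line and either of 2 treatments: 5 libraries with fulvestrant, palbociclib and FGF2 (the palbociclib arm) and 6 with fulvestrant and FGF2 (the fulvestrant-FGF2 arm), out of 647 libraries in the series. T47D is an established human breast cancer cell line of luminal type that expresses the estrogen receptor. Its cells had been infected with lentivirus carrying FGFR1 in the pLX307 plasmid, so that both arms share the FGFR1 construct, 100 nM fulvestrant and FGF2, and only the palbociclib arm had 1 µM palbociclib. The dose of FGF2 is not given in the sources used here. Cells grew in multiwell plates for 48 h and were then treated for 24 h, after which RNA was read by SMART-Seq2, a full-length method that primes on poly(A) tails. Also used were FGFR1-line arms with fulvestrant, FIIN-3 (100 nM, an FGF receptor inhibitor) and FGF2 (6 libraries), fulvestrant, trametinib (500 nM, a MEK inhibitor) and FGF2 (6), FGF2 (6), fulvestrant (6) and DMSO (5). The same pair of treatments in 6 further lines gave 12 and 12 libraries of control lines (parental and GFP), 6 and 6 of a line with wild-type FGFR2, and 18 and 18 of lines with FGFR2 M538I, N550K or K660N. The labels do not say whether libraries of an arm came from separate cultures. A p-value here therefore sets a difference only against the scatter among these samples, and that scatter may be technical.

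CDK4 and CDK6, bound to D-type cyclins, phosphorylate the retinoblastoma protein RB and its relatives, which frees E2F transcription factors to switch on the genes of DNA replication. Genes of G2 and mitosis are switched on later by a complex of MYBL2, FOXM1 and LIN proteins, and are repressed in resting cells by the DREAM complex, which contains RB relatives and E2F4. FGF2 acts upstream: it binds FGF receptors, which signal through RAS, MEK and ERK to induce CCND1, the gene of cyclin D1, and feedback inhibitors such as the ERK phosphatase DUSP6. Fulvestrant binds the estrogen receptor and leads to its degradation, which removes another input to cyclin D1 in luminal breast cells.

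The construct was read in both arms. FGFR1 stood at 971, 776, 459, 1044 and 1098 CPM in the palbociclib libraries, against 343.2 to 1163 CPM (median 811) in the fulvestrant-FGF2 libraries. CPM here are library-scaled counts, with TMM factors taken over the libraries used. The arms overlapped (0.15 ± 0.27 as log2 fold change ± standard error, edgeR adjusted p = 0.78). GFP cells had 6.87 to 16.4 CPM of FGFR1 with palbociclib and 6.72 to 16.3 CPM without it. Total counts ran from 6190923 to 9617616 in the palbociclib arm and from 3413648 to 9491192 in the fulvestrant-FGF2 arm, with 17818 to 19236 and 17099 to 20895 genes detected, and mitochondrial genes took 16.9 to 24.1% and 18.6 to 24.1% of counts. Of 8 T47D and luminal markers, all were detected in every library. GATA3 was at 258.9 to 343.4 TPM with palbociclib and 195.1 to 338.7 TPM without it, EPCAM at 194.7 to 322.6 and 261.003 to 377.3 TPM, and ESR1 at 2.79 to 4.93 and 2.68 to 4.42 TPM. Of 15 markers of fibroblasts, blood cells and endothelium 4 were at 0 in all 11 libraries, and their summed level was 7.16 to 9.43 TPM with palbociclib against 6.20 to 9.87 TPM without it. Replicate 3 of the palbociclib arm stood apart: its counts differed from those of the other palbociclib libraries with a chi-square of 34.3 to 55.6 per degree of freedom, against 5.68 to 21.9 among those others. It was also the only palbociclib library of its range of title numbers. Replicate 3 of the fulvestrant-FGF2 arm differed from its group with a chi-square of 14.04 to 36.1, and held the highest values of most interferon genes.

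Palbociclib lowered far more genes strongly than it raised. Of 12460 genes tested with edgeR's quasi-likelihood test, 545 were higher with palbociclib (4.37%) and 1037 were lower (8.32%) at a Benjamini-Hochberg adjusted p under 0.05, and such genes are said here to be called, to rise or to fall. Without palbociclib replicate 3 there were 484 higher and 1123 lower calls, and without fulvestrant-FGF2 replicate 3 there were 491 and 1023. On the deposited log2(TPM + 1) values limma called 2.34% higher and 11.5% lower, on a scale where the median gene was at −0.09 against 0.02 in the edgeR test. Lower genes had a median change of −1.19 on the log2 scale and higher genes of 0.67. By at least 4-fold, 2.24% of the genes tested were lower and 2 genes were higher. Complete separation of the arms was seen for 431 genes with every palbociclib library above every other (3.46%) and for 806 genes below (6.47%). In bulk samples, fewer cells in a phase of the cycle and less RNA per cell cannot be told apart.

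Genes of the cell cycle account for much of the steepest part of that lower side. Of the genes on lists for 10 cell cycle roles, 2 were not in the table and all but 4 were tested. Of those tested, 91.5% fell, 16 genes were not called and 1, CCND1, rose, with a median log2 change of −2.45 against 0.02 over all genes. The arms separated completely, palbociclib below, for 87.1% of them. Of the 63 genes lower by at least 16-fold, 37 are on these lists, and of those lower by at least 4-fold, 44.8% are. Most of the 1037 genes that fell are not on these lists. MKI67, whose protein Ki-67 marks cycling cells, had 4.3, 2.69, 0.953, 5.83 and 1.66 CPM in the palbociclib libraries, against 86.3 to 118.3 CPM (median 104.2) in the fulvestrant-FGF2 libraries. Every palbociclib library lay far below every other, and MKI67 averaged 3.09 ± 1.98 CPM (SD, n = 5) against 104.6 ± 12.2 CPM (SD, n = 6), a 33.4-fold fall (−5.06 ± 0.31, edgeR adjusted p = 8.1e-10).

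**Figure D1:**
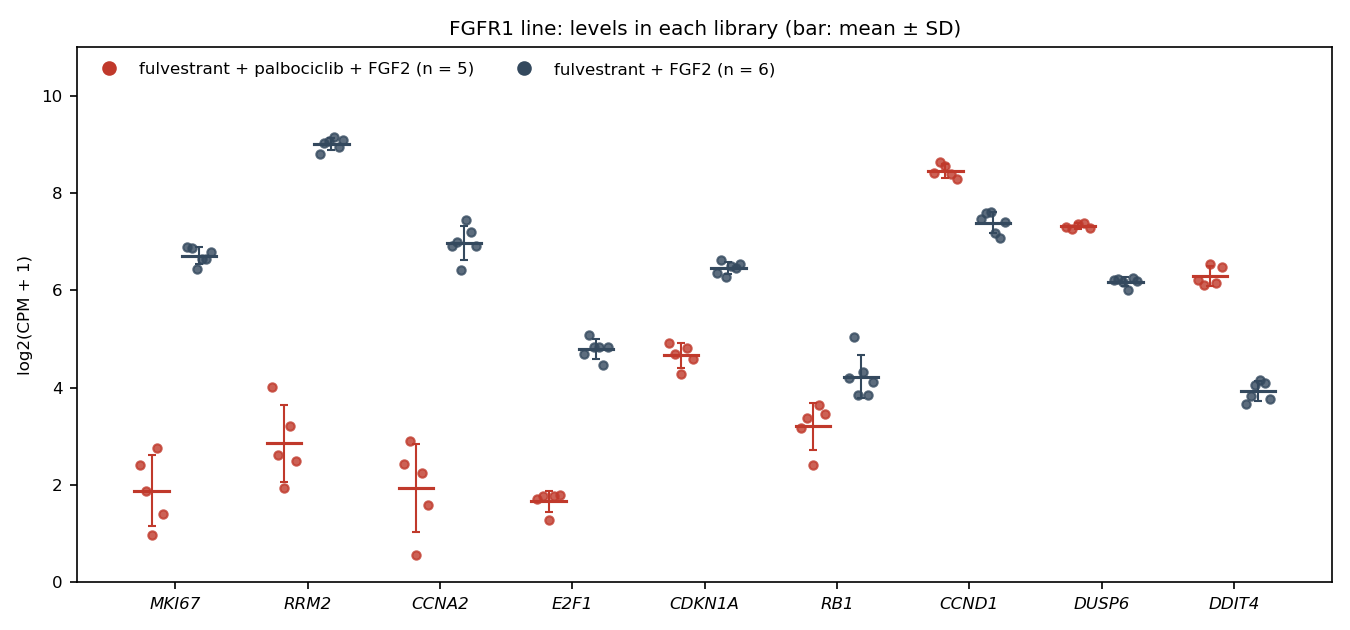
Levels of 9 genes in each library of the FGFR1 line, as log2(CPM + 1), with palbociclib (red, n = 5) left of fulvestrant plus FGF2 (dark, n = 6), and bars for the mean ± SD. MKI67, RRM2, CCNA2, E2F1, CDKN1A and RB1 lie lower with palbociclib, CCND1, DUSP6 and DDIT4 lie higher, and the arms overlap for none of these 9 genes.

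The genes of the kinases' own pathway moved apart. Of 7 genes for D-type cyclins, CDK4, CDK6 and the RB family, 1 rose and 3 fell (median −0.58). CCND1, which encodes cyclin D1, the partner of CDK4 and CDK6, stood at 338.002, 397, 376.7, 336.2 and 311.1 CPM with palbociclib, against 134.7 to 194.04 CPM (median 171.9) without it. All 5 libraries lay above the other 6, at 351.9 ± 34.6 CPM (SD, n = 5) against 168.1 ± 24.6 CPM (SD, n = 6), a 2.08-fold rise (1.06 ± 0.13, edgeR adjusted p = 1.2e-05). CCND3, the gene of cyclin D3, went the other way: it had 88.4, 83.6, 69.6, 69.3 and 73.7 CPM with palbociclib and 150.96 to 212.8 CPM (median 173.1) without it. Again the arms did not overlap (−1.23 ± 0.13, edgeR adjusted p = 1.8e-06). RB1, which encodes RB, was at 8.03, 9.40, 4.29, 11.5 and 9.95 CPM with palbociclib, against 13.4 to 31.9 CPM (median 16.9) without it, with no overlap (−1.10 ± 0.27, edgeR adjusted p = 0.0092). The RB relative RBL1, itself an E2F target, had 1.47, 0.806, 1.79, 3.40 and 0.498 CPM and 6.50 to 10.2 CPM in those arms and fell by 2.38 ± 0.35 on the log2 scale (edgeR adjusted p = 8.2e-05). RBL2, the relative that prevails in resting cells, was not called (−0.43 ± 0.19).

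The drug's target genes themselves changed little. CDK4 stood at 106.7, 108.4, 106.5, 74.6 and 74.5 CPM with palbociclib, against 110.1 to 136.2 CPM (median 127.9) without it. All palbociclib libraries lay just below all others, but the difference did not pass (−0.41 ± 0.14, edgeR adjusted p = 0.057), whereas it passed with DESeq2's Wald test (adjusted p = 0.040) with limma (adjusted p = 0.0015) and with a term for ranges of 96 title numbers (adjusted p = 0.024). CDK6 was low in both arms, at 4.07, 3.09, 1.91, 2.19 and 1.66 CPM and 0.929 to 6.49 CPM, with overlap (−0.58 ± 0.40).

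Among 7 genes of CDK inhibitors, none rose and 4 fell (median −1.83). CDKN1A, which encodes p21, had 29.4, 24.98, 18.4, 27.2 and 23.2 CPM with palbociclib, against 76.6 to 97.1 CPM (median 87.9) without it. Its highest palbociclib value lay well below its lowest other value, a 3.55-fold fall (−1.83 ± 0.14, edgeR adjusted p = 2.3e-08). CDKN3, a phosphatase of CDKs that peaks in mitosis, fell by 2.85 ± 0.17 on the log2 scale, the INK4 gene CDKN2C by 2.22 ± 0.32, and CDKN2D by 2.15 ± 0.33. The other three were not called: CDKN1B, the gene of p27, was at −0.60 ± 0.25, CDKN2A at −0.34 ± 0.17 and CDKN2B at 0.49 ± 0.23.

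At the entry to S phase, all 8 genes of cyclin E, cyclin A, CDK2 and their regulators fell (median −1.86). CCNA2, the gene of cyclin A2, had 4.41, 6.45, 0.477, 3.76 and 1.99 CPM with palbociclib, against 84.3 to 173.6 CPM (median 122.7) without it. Its arms were far apart (−5.22 ± 0.37, edgeR adjusted p = 5.7e-09). CCNE2, one of the E cyclins that activate CDK2, was at 1.81, 1.88, 0.119, 1.82 and 0.830 CPM and at 6.58 to 35.9 CPM (median 18.03), and fell by 3.88 ± 0.48 on the log2 scale. CDK2 itself fell less, to 23.6, 20.6, 16.4, 26.6 and 22.1 CPM with palbociclib against 53.9 to 76.9 CPM (median 64.1) without it (−1.58 ± 0.15, edgeR adjusted p = 5.4e-07). CCNE1, the other E cyclin gene, had overlapping arms and was at −1.38 ± 0.31 (edgeR adjusted p = 0.0049).

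The factors that drive these programmes fell unevenly. Of 13 E2F, DP, MYB and LIN genes, 9 fell and none rose (median −1.55). E2F1, an activator of S phase genes and a target of itself, had 2.26, 2.42, 1.43, 2.43 and 2.49 CPM with palbociclib, against 21.1 to 33.01 CPM (median 27.5) without it. The palbociclib libraries lay close together and below all others, a 12.3-fold fall (−3.62 ± 0.21, edgeR adjusted p = 3.9e-10). MYBL2, which turns on late cell cycle genes, stood at 2.15, 7.12, 2.62, 2.19 and 2.82 CPM against 75.8 to 119.8 CPM (median 103.4), and fell by 4.93 ± 0.28 on the log2 scale. FOXM1, the forkhead factor of mitotic genes, was at 3.62, 2.96, 2.26, 3.89 and 2.99 CPM against 30.1 to 39.8 CPM (median 32.7), and fell by 3.43 ± 0.19. The activator E2F2 was at −4.44 ± 0.46, and the repressors of late S phase E2F7 and E2F8 were at −4.38 ± 0.36 and −4.40 ± 0.63. Smaller falls were seen for the E2F partner TFDP1 (−1.05 ± 0.18) and for LIN9 (−1.55 ± 0.32) and LIN54 (−0.93 ± 0.19), core subunits of the DREAM and MYBL2 complexes. The activator E2F3, unlike E2F1 and E2F2, had overlapping arms, with 7.81, 8.06, 6.20, 8.74 and 10.5 CPM against 3.86 to 10.7 CPM (median 8.03), and was not called (0.08 ± 0.25, edgeR adjusted p = 0.88). E2F4, the repressor of resting cells, was at 29.4, 31.2, 30.4, 24.05 and 24.4 CPM against 27.3 to 34.8 CPM, also with overlap (−0.15 ± 0.14), and E2F5 (−0.41 ± 0.40) was not called either. E2F6, at −1.11 ± 0.36, was not called but passed with DESeq2 (adjusted p = 0.028), without a filter (adjusted p = 0.0022) and in 4 of 11 fits that left out a library.

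The replication machinery fell as a whole, by amounts that differed between its parts. All 14 genes of origin licensing (median −2.21) and all 28 genes of the replication fork (median −1.89) fell. MCM10, which helps to open the origin, had 1.13, 1.48, 0.477, 2.79 and 1.33 CPM with palbociclib, against 36.97 to 59.5 CPM (median 45.1) without it. That was the largest fall among licensing genes (−5.03 ± 0.29, edgeR adjusted p = 3.8e-10). CDC6, a loader of the replicative helicase, was at 17.1, 12.5, 11.7, 18.3 and 15.3 CPM against 75.3 to 133.1 CPM (median 103.5), and the helicase subunit MCM7 at 40.6, 43.1, 47.9, 51.01 and 39.5 CPM against 221.96 to 234.5 CPM. Neither gene's arms overlapped (CDC6 −2.79 ± 0.18, MCM7 −2.36 ± 0.12). The smallest licensing change was that of another helicase subunit, MCM4, whose arms overlapped at 108.4, 90.5, 55.8, 109.1 and 120.9 CPM against 116.4 to 281.7 CPM (−1.14 ± 0.23, edgeR adjusted p = 0.002). At the fork, TOP2A, a topoisomerase needed to untangle sister DNA, fell by 4.51 ± 0.28 on the log2 scale. The checkpoint adaptor CLSPN fell by 4.28 ± 0.28. PCNA, the sliding clamp of DNA polymerases, was at 44.8, 43.3, 62.8, 48.1 and 39.5 CPM with palbociclib, against 200.7 to 294.4 CPM (median 240.05) without it, with no overlap (−2.35 ± 0.15, edgeR adjusted p = 2.1e-09). The single-strand binding genes RPA1, RPA2 and RPA3, also used in DNA repair, fell by less than 1 on that scale (−0.76 ± 0.19, −0.67 ± 0.17 and −0.95 ± 0.18).

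Genes of nucleotide synthesis fell by widely different amounts, those of deoxynucleotides most steeply among the genes named here. Of 18 genes tested, 13 fell and none rose (median −1.07). RRM2, the cell cycle regulated subunit of ribonucleotide reductase, had 15.2, 5.10, 2.86, 8.26 and 4.65 CPM with palbociclib, against 445 to 566 CPM (median 527) without it. It averaged 7.21 ± 4.85 CPM (SD, n = 5) against 517 ± 43.4 CPM (SD, n = 6), a 71.4-fold fall (−6.16 ± 0.32, edgeR adjusted p = 1.5e-10). Thymidylate synthase, TYMS, was at 2.04, 2.28, 0.715, 3.16 and 0.166 CPM against 34.3 to 49.1 CPM (median 40.1), and fell by 4.57 ± 0.34 on the log2 scale. The salvage kinase TK1 fell by 3.16 ± 0.16. GART (−0.50 ± 0.22), UMPS (−0.42 ± 0.16) and CAD (−0.35 ± 0.20), enzymes of purine and pyrimidine synthesis in general, were among the 5 not called. With the title-number range term GART (−0.60, adjusted p = 0.0062) and UMPS (−0.47, adjusted p = 0.020) were called lower.

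Repair and chromatin genes that serve replication followed. Of 24 genes of homologous recombination and Fanconi repair, 23 fell (median −2.33). BRCA1, which promotes recombination, was at 6.56, 4.43, 3.22, 7.53 and 6.30 CPM with palbociclib, against 35.04 to 63.8 CPM (median 45.4) without it. The arms did not overlap for BRCA1 (−3.09 ± 0.23), and BRCA2, which acts in the same repair, fell by 2.35 ± 0.35. FANCM, a DNA translocase, was not called (−0.70 ± 0.23, edgeR adjusted p = 0.058), but passed at a like fold with the range term (adjusted p = 0.039) and with DESeq2 (adjusted p = 0.035). All 18 genes of chromatin assembly and DNA methylation upkeep fell (median −2.12). HMGB2, a DNA-bending chromatin protein, was at 4.98, 7.39, 8.58, 5.34 and 4.65 CPM with palbociclib, against 62.5 to 126.6 CPM (median 105.7) without it. The fall of HMGB2 (−4.03 ± 0.22) was far larger than that of its relative HMGB3 (−0.48 ± 0.14), whose arms overlapped and whose call was lost in 9 of 11 fits that left out a library. DNMT1, the maintenance DNA methyltransferase, had 20.9, 30.1, 29.8, 26.8 and 29.7 CPM against 72.01 to 94.96 CPM (median 80.9) and fell by 1.61 ± 0.14, while its recruiter UHRF1 fell by 3.58 ± 0.45.

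Histone genes went in both directions. Beside 8.32% of all genes that fell and 4.37% that rose, 5 of 14 replication-dependent histone genes tested fell and 6 rose (median 0.44). Most messages of such genes end without a poly(A) tail, so a method that primes on that tail reads only the polyadenylated part, and reads can be shared between near-identical copies. HIST1H4C, a histone H4 gene, was at 24.4, 44.6, 55.2, 23.1 and 17.8 CPM with palbociclib, against 299.4 to 573 CPM (median 441) without it. Its arms were far apart (−3.73 ± 0.29, edgeR adjusted p = 2.6e-08). The linker histone genes HIST1H1B and HIST1H1D each had reads in 1 of the 5 palbociclib libraries only, at 0.332 and 0.121 CPM, against 3.48 to 11.9 and 1.79 to 6.29 CPM without palbociclib. HIST1H3B and HIST1H1E were the other two that fell (−5.10 ± 0.64 and −3.06 ± 0.32). Among those that rose, HIST1H2AC, a histone H2A gene, was at 89.1, 74.1, 85.7, 81.5 and 97.9 CPM against 31.1 to 44.4 CPM (median 34.2), with every palbociclib library above every other (1.27 ± 0.13, edgeR adjusted p = 1.3e-06).

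Mitosis held the steepest falls. All 64 tested genes of mitosis and the kinetochore, of 66 listed, fell, with a median of −3.47. AURKB, the kinase that corrects kinetochore attachments, had 1.70, 1.07, 0, 1.94 and 0.332 CPM with palbociclib, against 79.3 to 138.9 CPM (median 104.6) without it. It had no read in 1 palbociclib library and its fitted fall was 102.4-fold (−6.68 ± 0.38, edgeR adjusted p = 3.7e-10). PLK1, the polo-like kinase of mitotic entry, was at 9.84, 8.19, 5.24, 5.95 and 3.82 CPM against 224.5 to 298.1 CPM (median 279.98), with no overlap (−5.37 ± 0.21, edgeR adjusted p = 9.5e-12). CDCA3, a trigger of mitotic entry, was at 0.679, 0.269, 0.238, 0.243 and 0.498 CPM against 28.1 to 49.7 CPM, a log2 fold change of −6.67 ± 0.28. The kinetochore genes SPC25 (−6.24 ± 0.33) and NDC80 (−5.30 ± 0.29), the spindle genes KIF18B (−6.05 ± 0.25), NUSAP1 (−5.36 ± 0.20) and KIF20A (−5.13 ± 0.48), and HJURP, the chaperone of centromeric histone H3 (−5.25 ± 0.33), fell by similar amounts. The kinase CDK1 was at 22.7, 17.7, 21.9, 28.1 and 22.6 CPM against 348.1 to 489 CPM (median 401), and its partner CCNB1, the gene of cyclin B1, at 60.7, 40.7, 66.1, 54.3 and 47.8 CPM against 370.9 to 583 CPM (median 505). Both arms stood apart for each, with more transcript left for CCNB1 (−3.22 ± 0.16) than for CDK1 (−4.19 ± 0.16) relative to its level without palbociclib. The smallest fall was that of BUB3, a checkpoint protein present throughout the cycle, at 104.2, 92.4, 116.3, 106.6 and 107.8 CPM against 165.3 to 222.8 CPM (−0.89 ± 0.12). Other large falls outside the mitosis list were those of the DNA glycosylase NEIL3 (−6.38 ± 0.38), the helicase PIF1 (−6.00 ± 0.59) and FAM111B (−5.52 ± 0.33).

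The promoters of these groups hold different sequence words. RefSeq promoters (build GRCh38.p14, not the hg19 build of the counts, from 250 bases before to 50 after the start site) were available for 9100 of the 12460 genes tested, among them 55 of the 64 mitosis genes and 24 of the 28 fork genes. Searched on both strands were E2F words (TTTCCCGC, TTTGGCGC, TTTCGCGC or TTTGCCGC), the cell cycle genes homology region or CHR, which LIN54 reads (TTTGAA, or TTCGAA, which is its own reverse complement), and CCAAT, the NF-Y word. No word contains another, and a promoter counts once per kind. A match describes letters in this window and is neither a bound site nor a cause. The stretches below show both kinds of promoter, for E2F1 and CDC6, which act at the entry to S phase, and for the mitotic genes PLK1 and CDCA3. Capitals mark the words, and GCGGCAAA in E2F1 is the reverse strand reading of TTTGCCGC. Each stretch is only part of its window: the windows of E2F1 and CDC6 also hold 3 CCAAT words each, which lie outside the stretches shown.
E2F1, chr20:33686378-33686438, minus strand: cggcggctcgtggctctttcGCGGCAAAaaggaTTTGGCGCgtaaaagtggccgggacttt
CDC6, chr17:40287866-40287898, plus strand: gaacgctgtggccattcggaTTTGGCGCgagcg
PLK1, chr16:23678796-23678885, plus strand: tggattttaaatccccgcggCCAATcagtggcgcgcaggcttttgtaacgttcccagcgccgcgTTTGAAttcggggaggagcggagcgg
CDCA3, chr12:6851267-6851343, minus strand: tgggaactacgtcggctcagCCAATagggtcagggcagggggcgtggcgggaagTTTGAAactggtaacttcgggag

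An E2F word was present in 11 of 24 fork promoters (45.8%) and 6 of 12 licensing promoters (50%), but in 5 of 55 mitosis promoters (9.09%), against 3.33% of all 27305 promoters in the table and 5.01% of those of genes not called. A CHR was present in 41 of 55 mitosis promoters (74.5%) and in 1 of 24 fork promoters (4.17%), against 16.6% of all promoters and 9.54% of those not called. CCAAT was present in 67.3% of mitosis and 58.3% of fork promoters, against 35.7% of all promoters. Over all 805 promoters of genes that fell, 13.2% held an E2F word, 23.9% a CHR and 49.2% CCAAT. Over those of genes that rose, these shares were 2.08%, 10.2% and 36.2%.

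**Figure D2:**
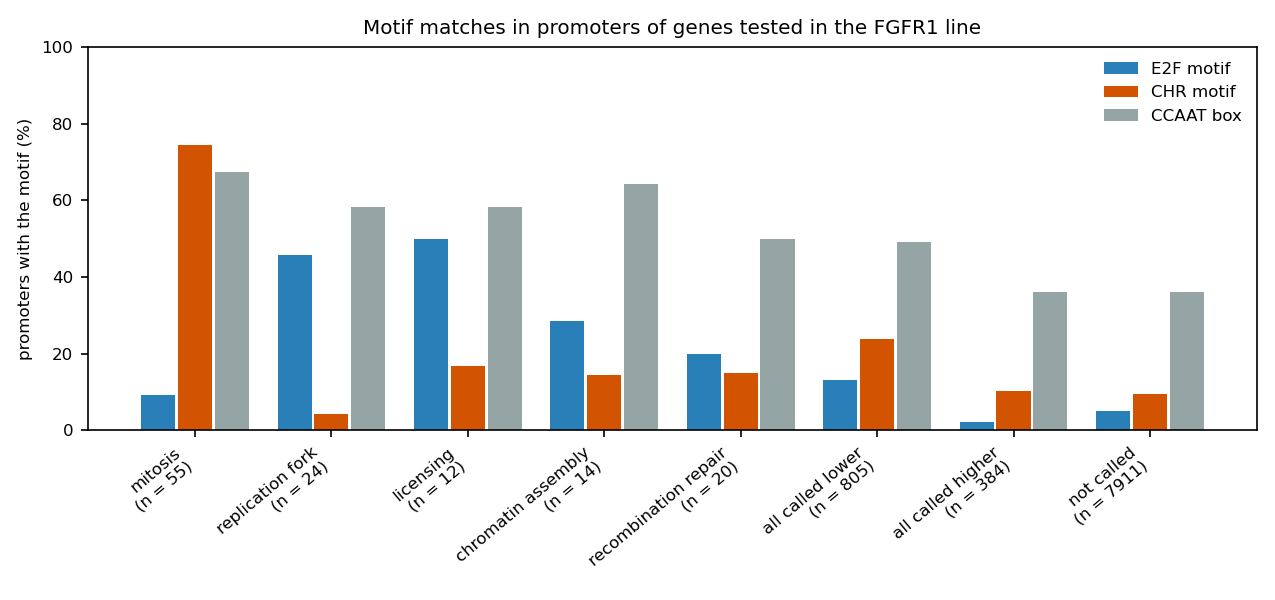
Share of promoters, in percent, that hold an E2F word, a CHR or CCAAT in each gene group of the FGFR1 line, with the groups of called and not called genes beside the cell cycle lists. CHR is highest for mitosis (74.5%), and the E2F word is highest for licensing (50%) and the fork (45.8%).

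The output of FGF signalling through ERK stayed present under palbociclib and 3 of its genes rose. Of 24 tested genes of ERK output, 3 rose and 1 fell, with a median of −0.05 against 0.02 over all genes. Over all genes tested, 4.37% rose and 8.32% fell. The ERK list, which includes IVL, was chosen with earlier results of these data known, so its count is for description only. DUSP6, the ERK phosphatase, had 157.9, 152.5, 164.7, 166.4 and 154.95 CPM with palbociclib, against 63.05 to 75.1 CPM (median 72.3) without it. The arms were narrow and well separated, at 159.3 ± 6.06 CPM (SD, n = 5) against 71.4 ± 4.33 CPM (SD, n = 6), a 2.22-fold rise (1.15 ± 0.11, edgeR adjusted p = 3.7e-07). PHLDA1, an early gene of growth factor signalling, was at 93.5, 85.6, 97.8, 121.2 and 89.4 CPM against 46.95 to 52.5 CPM, and IVL, the gene of the squamous envelope protein involucrin, at 374.9, 305.5, 348.2, 296.6 and 305.1 CPM against 143.2 to 224.3 CPM (median 179.7). Neither overlapped (PHLDA1 0.93 ± 0.12, IVL 0.81 ± 0.13). The 1 that fell was the ETS factor ETV1, low in both arms with overlap (−1.46 ± 0.47, edgeR adjusted p = 0.049), and its call was lost in 7 of 11 fits that left out a library and with the range term (adjusted p = 0.15). Of 6 FGF receptor and ligand genes, 1 rose: FGFR4 had 72.2, 59.5, 32.1, 65.1 and 73.8 CPM with palbociclib, against 28.2 to 50.05 CPM (median 36.8) without it, with overlap through replicate 3 (0.65 ± 0.19, edgeR adjusted p = 0.034), a call lost in 8 of 11 such fits. FGFR2 was at 0.43 ± 0.28 and was not called. The ligand gene FGF2, whose protein was added to the medium, had reads in 1 library of each arm and was not tested. MYC, a proto-oncogene downstream of both estrogen and ERK, had overlapping arms at 19.01, 11.01, 6.67, 5.71 and 6.14 CPM against 7.09 to 9.43 CPM (0.22 ± 0.28).

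Estrogen receptor and luminal genes changed by smaller amounts. Of 23 estrogen receptor genes tested, 4 rose (PGR, CTSD, TPD52L1 and AGR2) and 2 fell (OLFM1 and SLC7A5), with a median of 0.22. The 2 that fell are a share near the 8.32% over all genes, and the 4.37% over all genes that rose is near the share of 1 or 2 of 23. The 2 that fell did so in all fits that left out a library, but 1 or 2 rose without palbociclib replicate 1, 2, 3 or 5 or fulvestrant-FGF2 replicate 1, 2, 4 or 5. PGR, which encodes the progesterone receptor and is induced by estrogen, had 39.8, 49.3, 40.6, 57.2 and 46.95 CPM with palbociclib, against 12.4 to 37.3 CPM (median 27.4) without it. All palbociclib libraries lay above the others by a small margin (0.82 ± 0.22, edgeR adjusted p = 0.02), and the call was lost in 1 of 11 fits that left out a library, that without palbociclib replicate 4 (adjusted p = 0.063), and with limma on the TPM table (adjusted p = 0.10). OLFM1, a secreted glycoprotein gene induced by estrogen, went down, to 1.70, 2.42, 5.24, 3.64 and 1.66 CPM with palbociclib against 6.24 to 19.3 CPM (median 10.9) without it (−2.04 ± 0.34, edgeR adjusted p = 0.0003). SLC7A5, an amino acid transporter, also fell (−0.68 ± 0.14), and AGR2, a disulfide isomerase of secretory cells, rose (0.55 ± 0.16), highest in replicate 3 at 6206 CPM. ESR1, the estrogen receptor gene, was at 32.4, 21.1, 22.2, 31.3 and 33.2 CPM against 18.03 to 27.002 CPM, with overlap (0.35 ± 0.16, edgeR adjusted p = 0.18).

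Of 15 luminal identity genes, 6 rose and none fell (median 0.40, with 5 to 8 rising in fits that left out a library). Among all genes tested, 4.37% rose and 8.32% fell. The keratin genes KRT19 and KRT8, structural genes of luminal epithelium, were at 16409, 20256, 22820.3, 14295 and 17695 CPM with palbociclib against 8554 to 13199.8 CPM without it, and at 31576, 39369, 47207, 29711 and 36880.4 CPM against 17977 to 29133 CPM, highest in palbociclib replicate 3 and without overlap (KRT19 0.77 ± 0.14, KRT8 0.70 ± 0.15). Their relative KRT18 was not called (0.49 ± 0.16, edgeR adjusted p = 0.058), though it passed with DESeq2's Wald test (adjusted p = 0.030) and with the range term (0.53, adjusted p = 0.0026). The epithelial ETS factor ELF5 (0.65 ± 0.13), its relative ELF3 (0.40 ± 0.12) and the mucin MUC1 (0.54 ± 0.14) also rose, though the call of ELF3 was lost in 8 of 11 fits that left out a library, with limma (adjusted p = 0.13) and without a filter (adjusted p = 0.16). Of 6 basal or mesenchymal genes, 1 fell, LAMA3, a laminin chain gene (−1.56 ± 0.35).

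The genes that rose most were few and moderate in size. DDIT4, an inhibitor of mTOR complex 1 induced by stress, had 73.2, 67.8, 92.2, 69.95 and 88.8 CPM with palbociclib, against 11.6 to 16.8 CPM (median 14.5) without it. It averaged 78.4 ± 11.3 CPM (SD, n = 5) against 14.4 ± 2.12 CPM (SD, n = 6), a 5.41-fold rise that was the largest among genes of mean log2 CPM 3 or more (2.44 ± 0.15, edgeR adjusted p = 1.1e-09). C1orf64, a steroid receptor regulator of luminal breast cells, was at 41.4, 43.9, 61.9, 32.3 and 30.9 CPM against 12.2 to 20.6 CPM (1.49 ± 0.19). MXD4, a member of the MAX network that opposes MYC, was at 34.3, 42.98, 32.4, 25.9 and 30.7 CPM against 8.78 to 16.2 CPM (1.39 ± 0.18). Neither gene nor DDIT4 had overlapping arms. DEPTOR, another inhibitor of mTOR, rose to 29.5, 21.6, 23.4, 23.8 and 26.4 CPM against 8.05 to 13.5 CPM (1.22 ± 0.17, edgeR adjusted p = 3.5e-05), with no overlap. SOX9, a factor of progenitor cells (1.29 ± 0.18), BCAS1 (1.28 ± 0.16), the chloride channel gene CLIC3 (1.35 ± 0.18) and the kinase JAK3 (1.23 ± 0.23) rose alongside.

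Growth arrest genes rose in part. Of 22 growth arrest and FOXO-type genes tested, 9 rose and none fell, with a median of 0.50. Among all genes tested, 4.37% rose and 8.32% fell. Growth arrest genes that rose numbered 5 without palbociclib replicate 2, and 6 without palbociclib replicate 1 or fulvestrant-FGF2 replicate 5. BTG1, an antiproliferative gene of resting cells, was at 24.6, 36.7, 37.5, 28.5 and 25.4 CPM with palbociclib, against 10.7 to 20.7 CPM (median 14.4) without it, with no overlap (1.05 ± 0.20, edgeR adjusted p = 0.001). YPEL5 was at 59.7, 49.7, 54.7, 58.2 and 56.7 CPM against 26.9 to 37.3 CPM (0.73 ± 0.13), also with no overlap. The Krüppel-like factor KLF9 (1.23 ± 0.34), the PI3K inhibitor PIK3IP1 (1.00 ± 0.27), the coactivator CITED2 (0.91 ± 0.27) and the small GTPase RHOB (0.85 ± 0.19) rose too. The call of PIK3IP1 was lost with the range term (0.65, adjusted p = 0.16) and that of CITED2 in 6 of 11 fits that left out a library. Of 15 targets of p53 tested (median −0.26) none rose, which is near the 4.37% of all genes that rose. Beside 8.32% of all genes, 3 of them fell. These were the cytokine GDF15 (−1.70 ± 0.37), the p53 ligase MDM2 (−0.94 ± 0.21) and the repair gene DDB2 (−0.89 ± 0.18), all with overlapping arms. CDKN1A, which fell without overlap, was counted with the CDK inhibitors and not in this list.

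**Figure D3:**
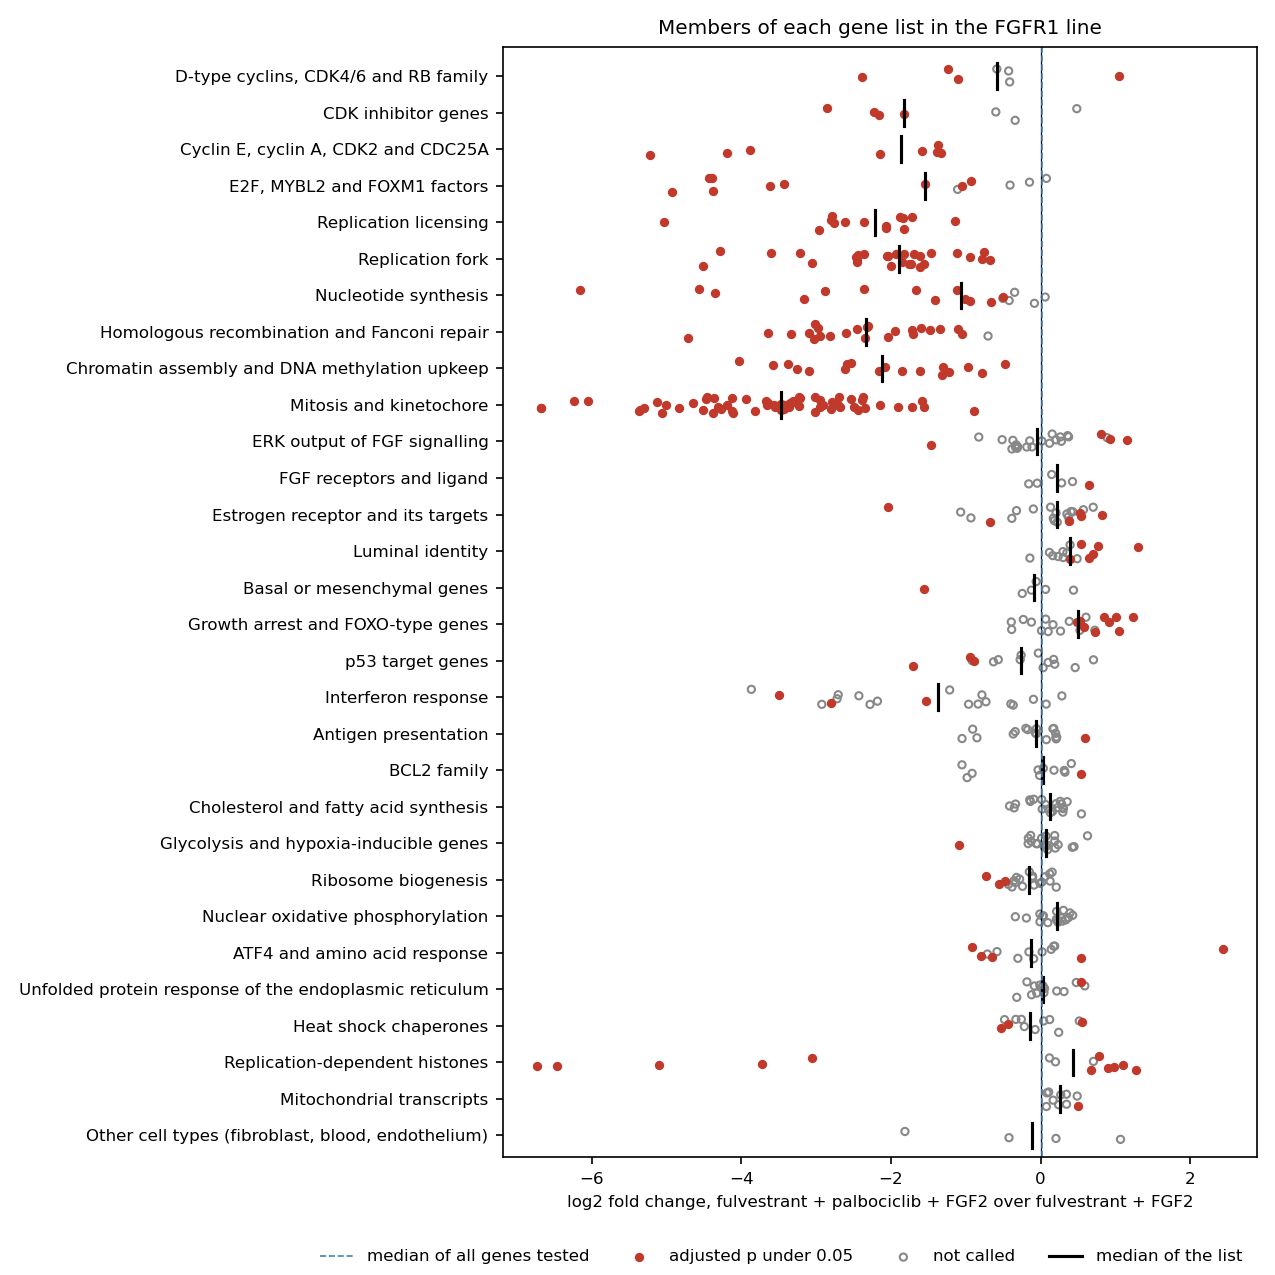
Log2 fold change, palbociclib arm over fulvestrant-FGF2 arm, of each tested member of the gene lists in the FGFR1 line (red, called; open, not called), with the list median as a black bar and the median of all genes dashed. The medians of the 10 cell cycle lists at the top lie left of 0, and most other lists lie around 0. Members of these 10 lists run from −6.68 for AURKB to 1.06 for CCND1, with 4 members right of 0.

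Interferon genes differed mainly through 1 library. Of 20 tested, 3 fell and none rose (median −1.37), but 18 of the 20 were highest in fulvestrant-FGF2 replicate 3, and without it 2 fell and the median was −0.01. Without fulvestrant-FGF2 replicate 4, 7 fell, and without replicate 2 or 6 of that arm, 5 fell. With no filter on low counts, 17 of 25 fell. The summed level of the list was 383.04, 444, 526.03, 421.3 and 350.7 CPM in the palbociclib libraries, against 431, 423, 1930, 432, 461 and 421 CPM in the fulvestrant-FGF2 libraries. OAS3, a sensor of double-stranded RNA, was at 15.8, 16.5, 8.22, 18.3 and 10.1 CPM with palbociclib, against 68.2 to 172.5 CPM (median 75.6) without it. It did not overlap (−2.79 ± 0.28, edgeR adjusted p = 6.6e-07) and remained lower without replicate 3 (−2.53). ISG15, a ubiquitin-like interferon gene, was at 3.39, 1.34, 2.62, 1.94 and 1.33 CPM against 0.541 to 130.99 CPM (median 2.70); its value of −3.49 ± 1.12 (edgeR adjusted p = 0.049) became −0.13 (adjusted p = 0.88) without that replicate. The third, USP18, which removes ISG15, was at 3.85, 5.91, 3.93, 3.64 and 3.32 CPM against 7.74 to 29.3 CPM (median 8.40), and did not overlap (−1.53 ± 0.36).

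Most metabolic and stress genes tested were not called. None of 21 genes of cholesterol and fatty acid synthesis and none of 18 nuclear genes of oxidative phosphorylation was called. Of 20 glycolysis and hypoxia genes 1 fell: PFKP, the platelet-type phosphofructokinase, had 123.6, 104.6, 79.01, 84.04 and 100.9 CPM with palbociclib, against 189.2 to 231.9 CPM (median 205.9) without it, with no overlap (−1.09 ± 0.13, edgeR adjusted p = 6.4e-06). Of 21 genes of ribosome biogenesis 3 fell, FBL (−0.73 ± 0.16), NOP56 (−0.56 ± 0.16) and DKC1 (−0.47 ± 0.13). Over all genes tested, 4.37% rose and 8.32% fell. In fits that left out a library, the call of NOP56 was lost in 7 of 11 and that of DKC1 in 2. The 14 genes of the ATF4 response split, with DDIT4 and the serine enzyme PSPH higher and 3 other enzymes of serine and one-carbon metabolism lower. The call of PSPH was lost with the range term (0.41, adjusted p = 0.080), with limma (adjusted p = 0.066) and in 4 of 11 fits that left out a library. Of these enzymes, PHGDH, which commits glycolytic carbon to serine, was at 55.7, 66.1, 82.3, 54.8 and 51.1 CPM against 107.7 to 134.4 CPM and MTHFD2, a mitochondrial folate enzyme, at 122.8, 107.7, 97.6, 148.5 and 123.8 CPM against 175.6 to 239.5 CPM. Neither overlapped (PHGDH −0.91 ± 0.14, MTHFD2 −0.80 ± 0.13), and PSAT1 fell by 0.64 ± 0.17. Of 14 unfolded protein genes 1 rose (HERPUD1), of 12 heat shock genes 1 rose (HSPA1A) and 2 fell (HSPD1 and HSP90AA1), of 18 antigen presentation genes 1 rose (HLA-DMA), and of 11 BCL2 family genes 1 rose, the survival gene BCL2L1 (0.54 ± 0.15). In fits that left out a library, the calls of HSP90AA1 and HLA-DMA were lost in 8 of 11 and that of HSPA1A in 5, and HSPA1A also lost its call with the range term (adjusted p = 0.069). Of 10 mitochondrial transcripts 1 rose, MT-ATP6 (0.50 ± 0.14), which was highest in palbociclib replicate 3.

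Among the arms of the FGFR1 line used here, the palbociclib arm had the lowest MKI67 and RRM2 and the highest DUSP6 and CCND1. Further arms of that line in the series, such as FIIN-3 with FGF2 and no fulvestrant, were not used and are not ranked. Arms other than those tested are given as medians of their libraries, for description. MKI67 was at 2.69 CPM with fulvestrant, palbociclib and FGF2, at 31.03 CPM with FIIN-3 in place of palbociclib, at 89.05 CPM with trametinib in its place, at 104.2 CPM with fulvestrant and FGF2, at 123.6 CPM with FGF2, at 40.4 CPM with fulvestrant and at 61.6 CPM with DMSO. The highest palbociclib library for MKI67, at 5.83 CPM, lay below the lowest library with fulvestrant alone, at 30.6 CPM. DUSP6 in the same order was at 157.9, 2.68, 1.91, 72.3, 60.8, 3.15 and 4.14 CPM. The 3 arms with FGF2 and no FGF receptor or MEK inhibitor were thus far above the rest, the palbociclib arm on top. CCND1 was at 338.002, 55.8, 73.9, 171.9, 205.7, 68.8 and 102.5 CPM, again highest with palbociclib. CDKN1A was at 24.98, 34.7, 84.1, 87.9, 89.3, 41.2 and 33.1 CPM, lowest with palbociclib. PGR was at 46.95, 74.9, 61.02, 27.4, 35.1, 69.4 and 142.4 CPM, so that the palbociclib arm lay above the fulvestrant-FGF2 arm and below the arms without FGF2. DDIT4 was at 73.2, 42.99, 30.7, 14.5, 11.4, 42.3 and 23.295 CPM, highest with palbociclib. MXD4 and BTG1 had medians of 32.4 and 28.5 CPM with palbociclib, against 38.3 and 77.1 CPM with fulvestrant alone. The DMSO arm includes 1 library that stands apart, in which the mitochondrial ribosomal RNA MT-RNR2 took 1.49% of counts.

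**Figure D4:**
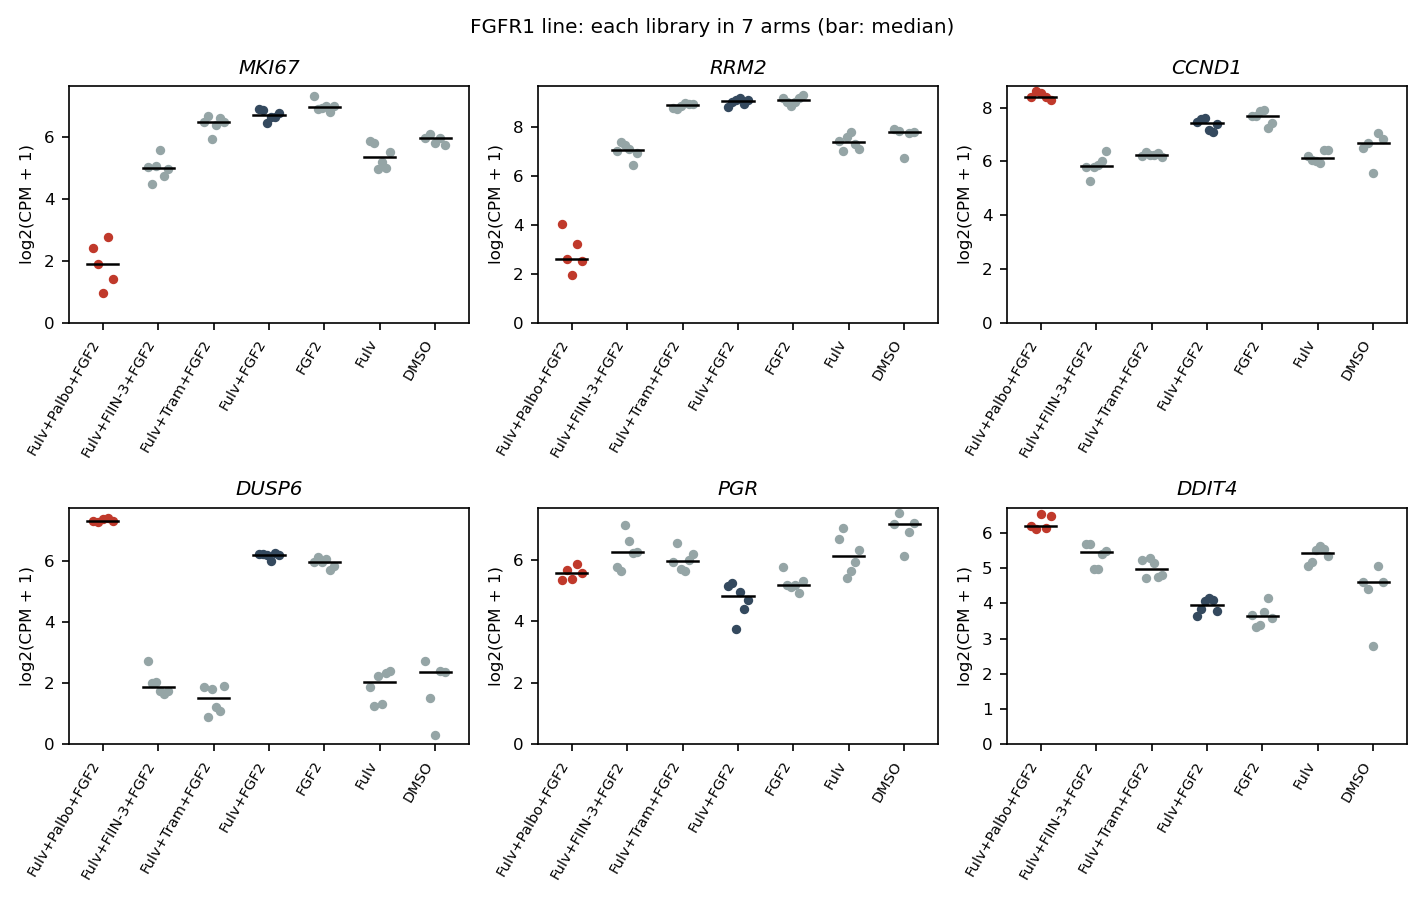
Levels of MKI67, RRM2, CCND1, DUSP6, PGR and DDIT4 in each library of 7 arms of the FGFR1 line, with a bar at the median. The palbociclib arm is lowest for MKI67 and RRM2 (medians 2.69 and 5.10 CPM) and highest for CCND1, DUSP6 and DDIT4 (338.002, 157.9 and 73.2 CPM, as medians).

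Palbociclib and FIIN-3, both added to fulvestrant and FGF2, were compared directly. Of 12440 genes tested, 859 were higher with palbociclib than with FIIN-3 (6.91%) and 927 were lower (7.45%). A term for ranges of title numbers, which the arms fill unequally, brought the calls from both directions, 14.4%, to 22.3% of those genes. Of the tested cell cycle genes, 64.8% were lower with palbociclib and 3 genes were higher (median −1.09), and 57 of 64 mitosis genes were lower (median −1.67). MKI67 was at 4.3, 2.69, 0.953, 5.83 and 1.66 CPM with palbociclib, against 21.4 to 47.03 CPM (median 31.03) with FIIN-3, with no overlap (−3.30 ± 0.34, edgeR adjusted p = 6.6e-07). RRM2 ran from 2.86 to 15.2 CPM with palbociclib and from 85.6 to 166.8 CPM with FIIN-3 (−4.13 ± 0.32). AURKB (−4.71 ± 0.45), FAM111B (−4.05 ± 0.40), NUSAP1 (−3.77 ± 0.22), HMGB2 (−3.55 ± 0.21) and E2F1 (−2.16 ± 0.29) were lower as well.

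ERK output went the other way: 12 of 18 tested genes were higher with palbociclib than with FIIN-3 and 1 was lower (median 1.54). That list, which includes IVL and LAT2, was chosen with earlier results of these data known, so its count is for description only. DUSP6 ran from 152.5 to 166.4 CPM with palbociclib, against 2.13 to 5.58 CPM with FIIN-3 (5.67 ± 0.22, edgeR adjusted p = 1.3e-13). CCND1 ran from 311.1 to 397 CPM with palbociclib, against 37.2 to 81.9 CPM with FIIN-3 (2.63 ± 0.18, edgeR adjusted p = 2.7e-09). Neither overlapped. The adaptor LAT2 (5.98 ± 0.39), IVL (5.28 ± 0.18), the peroxisomal oxidase ACOX2 (4.77 ± 0.29), the integrin ITGB6 (4.63 ± 0.39), the lipid transporter MFSD2A (4.18 ± 0.29), PHLDA2 (3.61 ± 0.20) and the protease inhibitor TIMP1 (3.52 ± 0.27) were higher with palbociclib. Glycolysis genes were higher in 8 of 20 and lower in 1 (median 0.43), and growth arrest genes were higher in 3 and lower in 7 of 22 (median −0.50). Estrogen receptor genes divided into 6 higher and 6 lower of 21, with ESR1 (−1.06 ± 0.18) and PGR (−0.77 ± 0.23) lower with palbociclib, as was MYC (−1.21 ± 0.27). The call of PGR against FIIN-3 was lost without palbociclib replicate 1, 2, 3 or 5, without FIIN-3 replicate 3 or 4, and with limma (adjusted p = 0.12). CDKN1A (−0.47 ± 0.17, edgeR adjusted p = 0.068), RB1 (−0.59 ± 0.35) and FGFR1 (0.36 ± 0.24) were not called between the drugs. CDKN1A was called lower with palbociclib with the title-number range term (−0.64, adjusted p = 0.010), within the ranges that hold both arms and with DESeq2 (adjusted p = 0.038), and RB1 within those ranges (−0.82, adjusted p = 0.036). Mitochondrial genes took 16.9 to 24.1% of counts with palbociclib and 19.2 to 34.03% with FIIN-3, and the part of that difference in these values was not tested.

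The same addition of palbociclib was made in the other lines, with no library shared between lines. It gave 10.8% higher and 14.5% lower calls among 13457 genes in the control lines, 2.76% and 6.67% of 12364 in the wild-type FGFR2 line, and 11.7% and 13.8% of 13594 in the mutant FGFR2 lines, with unequal numbers of libraries. Of the 1037 genes that fell in the FGFR1 line, 966 (93.2%) also fell in the control lines, where they are 49.5% of those called lower, 725 (69.9%, and 87.9% of those called) in the wild-type FGFR2 line and 977 (94.2%, and 52%) in the mutant lines. Of the 545 that rose, 70.6% (26.4% of those called higher), 42.9% (68.6%) and 86.2% (29.5%) did so in these lines. By sign alone, called or not, 98.5%, 99.6% and 99.6% of those tested there were higher. Of the genes that fell, 99.3%, 99.6% and 99.5% of those tested there were lower by sign. MKI67 was at −5.06 in the FGFR1 line, −5.24 in the control lines, −5.30 in the wild-type FGFR2 line and −5.10 in the mutant lines.

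The difference between lines was tested itself and passed for few genes, with counts that moved with the processing. The palbociclib effect in the FGFR1 line differed from that in the control lines at 0 of 13893 genes (0%; 4.66% at unadjusted p under 0.05 in edgeR, and 3 called by DESeq2, 1 by limma, 8 with the range term and 18 without a filter on low counts). Without palbociclib replicate 4 or fulvestrant-FGF2 replicate 3 there was 1 call. It differed from that in the wild-type FGFR2 line at 0 of 13274 genes (0%; 1.31% at unadjusted p under 0.05 in edgeR, and 0 called by DESeq2, by limma or with the range term, but 14 without a filter). Against the mutant FGFR2 lines 1 of 14022 genes differed (0.00713%), IFIT1, an interferon-induced gene (−7.68 ± 1.43, edgeR adjusted p = 0.0296), a call that was lost without any 1 of the 5 palbociclib libraries, without fulvestrant-FGF2 replicate 3, with the range term, within the ranges that hold both arms and with limma. In that contrast DESeq2 called 12 genes, and 20 were called without a filter. IFIT1 ran from 0 to 1.34 CPM with palbociclib and from 0 to 291.5 CPM without it in the FGFR1 line, where the highest value was that of replicate 3, and from 18.99 to 63.4 CPM and 9.95 to 29.9 CPM in the N550K line. The mutant lines varied: IFIT1 had medians of 29.6 CPM with palbociclib and 12.5 CPM without it in the N550K line, of 30.6 and 42.9 CPM in the K660N line, and of 4.24 and 5.17 CPM in the M538I line. For CCND1 the effect in the FGFR1 line minus that in another line was 0.29 (95% interval −0.04 to 0.61) against the control lines, 0.19 (−0.17 to 0.55) against wild-type FGFR2 and 0.27 (−0.09 to 0.63) against the mutants. For DUSP6 the difference from the control lines was 0.47 (0.17 to 0.77, edgeR adjusted p = 0.72) and for DDIT4 0.88 (0.52 to 1.25, edgeR adjusted p = 0.14). None of these passed over all genes. The smallest adjusted p against the control lines was that of TUBA1B, a tubulin gene chosen here after its values were seen, which fell by 1.47 ± 0.14 in the FGFR1 line, against −2.42 in the control lines (difference 0.95, 0.59 to 1.31, edgeR adjusted p = 0.090).

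**Figure D5:**
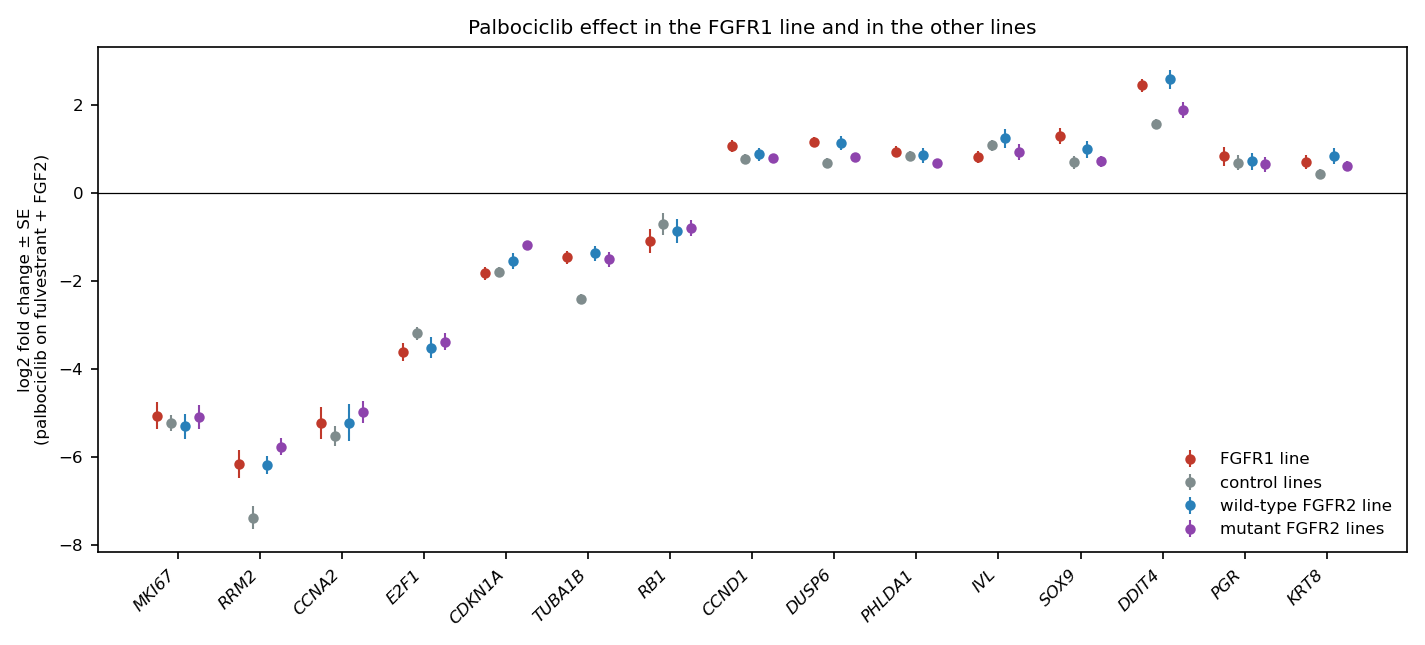
Log2 fold change ± standard error of 15 genes with palbociclib added to fulvestrant and FGF2, in the FGFR1 line, the control lines, the wild-type FGFR2 line and the mutant FGFR2 lines. MKI67 lies between −5.30 and −5.06 in the 4 line classes and CCND1 between 0.77 and 1.06.

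The level of DUSP6 in the other lines is given for description. DUSP6 had a median of 157.9 CPM with palbociclib and 72.3 CPM without it in the FGFR1 line, of 27.2 and 16.3 CPM in GFP cells, of 24.7 and 16.7 CPM in parental cells, and of 160.1 and 71.6 CPM in the wild-type FGFR2 line. The palbociclib arm was the higher in each.

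Libraries of the 2 arms fell together in only 2 of the ranges of 96 title numbers, the second and the fourth, with 2 libraries of each arm in each range. Within these ranges the palbociclib arm differed from the fulvestrant-FGF2 arm in mean log2(CPM + 1) by −4.74 and −4.55 for MKI67, by 0.99 and 1.21 for CCND1, by 1.07 and 1.21 for DUSP6 and by 2.41 and 2.19 for DDIT4. RB1 (−1.34 and −0.53) and PGR (0.29 and 1.05) varied more between the ranges.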

How the data were processed

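The deposited table of read counts per gene (count) held 54592 genes in 647 libraries, of which 112 were used. Reads had been aligned with STAR to hg19, per the submitters' processing notes; the counting program, annotation and versions are not given in the sources used here. A second deposited table held log2(TPM + 1) values and served an alternative test. Counts were tested with the quasi-likelihood functions of edgeR 4.0.16 (R 4.3.3) on the libraries of each comparison alone, after TMM scaling and removal of low genes by filterByExpr (minimum count 10), and p-values were adjusted by Benjamini-Hochberg over every gene tested. Differences between lines were tested as an interaction with line as an additive factor. A value and its ± are a log2 fold change and standard error, unless SD is named, and 95% intervals are 1.96 standard errors wide on each side. Named genes were the 15 strongest in each direction among called genes of mean log2 CPM 3 or more (8 per direction in other comparisons), up to 6 members of each of 31 lists, any member of the 10 cell cycle lists, genes of the perturbations, and counts of 5 or fewer in full. The comparison, members and lists were chosen with earlier results of these data known. Alternatives were DESeq2 1.42.0 size factors and Wald test, no count filter, limma 3.58.1 with trend on the second table, a term for ranges of 96 title numbers, the ranges that hold both arms, and leaving out each library. The labels do not call these ranges plates. The fits were tested on simulated data. No 2 libraries of an arm agreed within sampling noise (chi-square per degree of freedom at least 5.28). Some results are not reported here.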

Additional observations from a re-analysis of the deposited data

Results flagged for a closer look

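In 32 of the arm and gene combinations tested (9.82%), 1 library lay far from the others of its arm by Dixon's gap test. Its nominal rate of about 1 in 20 is for independent normal values, which CPM of related genes are not. A gene read in only 1 library of an arm passes by construction, as FGF2, HIST1H1B and HIST1H1D did. The share is therefore for description only. Values are CPM. Palbociclib replicate 3 was the highest library for CKS1B (81.5), RPA2 (94.5), HMGB3 (93.4), AGR2 (6206), HLA-DMA (86.9), NOP56 (152.5), MT-ATP6 (3848) and FGF2 (0.238), and the lowest for E2F1 (1.43), FGFR4 (32.1) and ITGB6 (9.65). Palbociclib replicate 2 was the highest for MYBL2 (7.12), HJURP (4.299), USP18 (5.91) and IFIT1 (1.34) and the lowest for PSAT1 (15.4). Replicate 1 of that arm was the lowest for TFDP1 (8.94), replicate 4 the highest for HIST1H1D (0.121) and replicate 5 the highest for HIST1H1B (0.332).

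In the fulvestrant-FGF2 arm, replicate 3 was the highest library for the interferon genes ISG15 (130.99), USP18 (29.3), IFIT1 (291.5) and OASL (167.2), and the lowest for SKP2 (15.5). Replicate 2 was the lowest for CDKN3 (169.9), RPA3 (80.6), PLK1 (224.5), NDC80 (40.3) and PSPH (29.2), and had the smallest total count of the 11 libraries. Replicate 4 was the lowest for DUSP6 (63.05) and the highest for C1orf64 (20.6), and replicate 5 the highest for FGF2 (0.465).

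The palbociclib effect on IFIT1 differed between lines in a test of the difference itself, at −7.68 for the FGFR1 line minus the mutant FGFR2 lines on the log2 scale. That call was lost without fulvestrant-FGF2 replicate 3, without any 1 of the palbociclib libraries, with the title-number range term, within the ranges that hold both arms and with limma.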

How the results depend on the processing

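No paired analysis was possible because the labels give no replicate number that differs between libraries. In percent of the genes tested as reported, higher calls were 2.34% with limma on the log2(TPM + 1) table, against 4.37%, and lower calls stayed within 1.5 times of 8.32% in every alternative. Leaving out each library in turn gave 3.01 to 3.94% higher and 7.30 to 9.01% lower. Of the genes called lower, 85.1 to 92.3% were called again in those fits, and of the genes called higher, 66.2 to 80.4%. Calls between palbociclib and FIIN-3 were 22.3% with the title-number range term and 22.5% in the ranges that hold both arms, against 14.4%, and 11 to 16.5% with a library left out. For differences between lines, the count against the control lines was 18 without a filter, 3 with DESeq2's Wald test, 8 with the range term and 1 with limma, and 0 to 1 with a library left out. Against the wild-type FGFR2 line it was 14 without a filter, and 0 with any library left out. Against the mutant FGFR2 lines it was 20 without a filter, 12 with the Wald test, 0 with the range term, with limma and in the shared ranges, 2 without the library of low depth, and 0 to 1 with a library left out. Signs turned for genes that were not called: E2F3 was at −0.060 with the range term, −0.020 with limma, −0.059 in the shared ranges, and −0.064 to 0.19 with a library left out. FGFR1 was at −0.0023 to 0.30 with a library left out, and between palbociclib and FIIN-3 at −0.041 with the range term and −0.045 in the shared ranges. MYC was at −0.040 with limma and −0.16 to 0.35 with a library left out. OASL, an interferon gene, was at 0.63 with the range term, 0.66 in the shared ranges, and −4.12 to 1.06 with a library left out. The cause was not tested for any of these. Among calls near the threshold, those of HMGB3 and TPD52L1 were lost in 9 of the 11 fits with a library left out, those of ELF3, FGFR4, HLA-DMA and HSP90AA1 in 8, CTSD, ETV1 and NOP56 in 7, CITED2 and ISG15 in 6, HSPA1A in 5, AGR2 and PSPH in 4, BCL2L1 in 3, DKC1 and PIK3IP1 in 2, and KLF9, MT-ATP6, MUC1 and PGR in 1. No library of the palbociclib comparison, of that with FIIN-3, or of those with the control and wild-type FGFR2 lines stood apart by MT-RNR2 or was of low depth, so these alternatives gave no value there. Small arms and 3413648 counts in the shallowest library limit what can be called among low genes.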
